A study of Homo sapiens with 12 samples.

Results

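The genes described here encode 7 chemokines, the interleukins IL1A and IL6 and the related cytokine LIF: CCL20, CXCL1, CXCL2, CXCL3, CXCL5, CXCL8, CXCL16, IL1A, IL6 and LIF. They are 10 of the 25733 genes in the deposited table, and the group was chosen by measured values, because CCL20 and CXCL1 had lower FPKM with NH4Cl. The rule for the choice does not say whether cells with TGF-β counted, and earlier results of both were known. The differences with NH4Cl, without and with TGF-β, are therefore given for all 10 genes as a description, with no test. FPKM are fragments per kilobase of exon, scaled by a total for each library. A mean of at least 1 FPKM over all libraries was required for testing, which 12341 genes met, 7 of the 10 among them. CXCL5 lay just below that limit with a mean of 0.987 FPKM, and IL1A and IL6 lay far below it. The working name of the group, genes lowered by NH4Cl, did not hold for every gene. CCL20, CXCL1, CXCL2, CXCL3, CXCL5 and CXCL8 had lower means with NH4Cl, whereas CXCL16, LIF and IL1A had higher means, and IL6 was close to 0 throughout.

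The study asked how ammonia, a product of gut bacteria given here as NH4Cl, changes the response of colorectal cancer cells to TGF-β. Its abstract also states that ammonia bound to fragments of the spectrin SPTBN1 induces proinflammatory cytokine expression. The abstract names no cytokine genes for this, and the statement was not tested here. RNA was sequenced from HCT116, an established human colorectal carcinoma cell line of epithelial origin, in 4 groups of 3 libraries: untreated control cells, cells given TGF-β, cells given NH4Cl and cells given both. The sample labels name the treatments only. By the study's general description of cell treatments, cells received 10 mM NH4Cl or vehicle for 24 h, and for the TGF-β groups NH4Cl or vehicle for 23 h and then 200 pM TGF-β for 1 h; its section on sequencing repeats only the NH4Cl dose. Between 14807630 and 18191998 reads per library fell on genes. All 7 epithelial marker genes passed 1 FPKM, led by KRT18 with a mean of 876 FPKM, and their summed level ran from 2281 to 3426 FPKM per library. Of 15 markers of leukocytes, endothelium and fibroblasts, 12 were in the table and 3 passed 1 FPKM. Their summed level was 5.77 to 11.9 FPKM per library, the most abundant was the endothelial gene VWF with a mean of 3.01 FPKM, and PTPRC, CD68 and CD163 were not among the genes listed.

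The replicate 3 library of every group stood apart from replicates 1 and 2, so results are given with and without it. The leading principal component held 52.5% of the variance and separated the 4 replicate 3 libraries from the other 8, and the next component held 15.5% and separated libraries with NH4Cl from libraries without it. Reads on mitochondrial genes made up 2.46% to 3.18% of replicates 1 and 2 and 4.50% to 5.12% of replicate 3. The chemokine genes moved with this split. In replicate 3, CCL20 was at 0.420 to 0.593 of the mean of replicates 1 and 2 of the same group, CXCL1 at 0.556 to 0.685, CXCL2 at 0.337 to 0.488, CXCL3 at 0.643 to 0.793 and CXCL5 at 0.115 to 0.367, while LIF was at 2.03 to 2.49 times that mean. CXCL8 (0.699 to 1.33) and CXCL16 (0.955 to 1.08) lay on both sides of equality. Libraries with the same replicate number deviated together across genes (r 0.702 to 0.774 for number 3, 0.349 to 0.533 for 1 and 2). Deviations within a group cancel, so the offset of replicate 3 alone can make replicates 1 and 2 deviate together. The matching of numbers 1 and 2 between groups was therefore not established. A fit with the replicate number as a block is printed wherever it changed a result. What the replicate number stands for is not given in the sources used here, and its part in the results was not tested.

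Chemokines are small secreted proteins that guide leukocytes through receptors of the G protein-coupled family. CXCL1, CXCL2, CXCL3, CXCL5 and CXCL8 carry the glutamate-leucine-arginine motif and attract neutrophils through CXCR2, with CXCL8 also acting on CXCR1, while CCL20 is made by gut epithelium and attracts CCR6-bearing lymphocytes and dendritic cells. Many of these genes are transcribed under NF-κB and AP-1, and their mRNAs often carry AU-rich elements in the 3′ untranslated region that bind decay factors.

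Promoter sequences are shown because 5 of the 6 chemokine genes with lower values carry the same 9-base word at a similar distance from the start site. RefSeq promoters on build GRCh38.p14, from 250 bases before to 50 bases after each start, were found for 8 of the 10 genes, with none for CXCL16 and LIF, and also for CXCL6, a close relative of CXCL5. In the lines below capitals mark GGAATTTCC, an NF-κB-type word that reads almost as its own reverse complement, in windows of 30 bases on the gene strand: CXCL1 at chr4:73869305-73869334 (plus strand), CXCL2 at chr4:74099253-74099282 (minus), CXCL3 at chr4:74038748-74038777 (minus), CXCL5 at chr4:73998748-73998777 (minus), CXCL6 at chr4:73836579-73836608 (plus) and CXCL8 at chr4:73740468-73740497 (plus). The windows of CXCL1 and CXCL8 lie in no exon of GENCODE release 29, while those of CXCL2, CXCL3, CXCL5 and CXCL6 lie in an exon there, since that annotation starts these genes further upstream than RefSeq.
CXCL1: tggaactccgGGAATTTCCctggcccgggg
CXCL2: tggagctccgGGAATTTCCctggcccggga
CXCL3: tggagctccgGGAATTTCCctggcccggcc
CXCL5: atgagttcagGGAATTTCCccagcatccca
CXCL6: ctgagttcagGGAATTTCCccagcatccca
CXCL8: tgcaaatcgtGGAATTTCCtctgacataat

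A longer stretch is given for the pair of genes that led to the choice of the group, from 110 to 11 bases before the start. CXCL1 lies at chr4:73869283-73869382 on the plus strand, in no GENCODE exon, with capitals again on GGAATTTCC. CCL20 lies at chr2:227813732-227813831 on the plus strand, 10 of its 100 bases in a GENCODE exon, with capitals on its match to the NF-κB consensus, which reads on the opposite strand.
CXCL1 promoter: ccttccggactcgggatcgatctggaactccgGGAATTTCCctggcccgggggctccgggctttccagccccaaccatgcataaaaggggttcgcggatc
CCL20 promoter: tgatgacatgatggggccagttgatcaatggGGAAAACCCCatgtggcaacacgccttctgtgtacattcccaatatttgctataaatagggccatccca

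The word GGAATTTCC was searched on both strands and was present in 162 of 35116 RefSeq promoters of the same length (0.461%). Its first base lay at -78 in CXCL1, -77 in CXCL2, -78 in CXCL3, -90 in CXCL5, -91 in CXCL8 and -89 in CXCL6. The NF-κB consensus, which overlaps GGAATTTCC in CXCL1, CXCL2, CXCL3, CXCL5 and CXCL6, was present in 11.3% of promoters and in 6 of the 8 genes, which adds CCL20 at -79 and IL6 at -73 and leaves out CXCL8. The TATA-type word TATAAA (11.5% of promoters) was found in CCL20 at -29, CXCL8 at -31 and IL1A at -239, and the AP-1-type word TGANTCA (7.71%) in CXCL8 at -137 and in both RefSeq promoters of IL1A. The C/EBP-type word TTGCNNAA (10.5%) was found in CXCL2 at -188 and IL6 at -155, and the CRE-type word TGACGTCA (1.85%) in none of the 8. Over the whole 300 bases, CXCL1 and CXCL3 shared 82.5% of aligned positions, CXCL5 and CXCL6 83.1%, CXCL2 and CXCL3 73.7% and CXCL1 and CXCL2 69.7%, against 41.7% to 52.6% for all other pairs. The words were chosen after the sequences and values had been seen, and a match describes letters, not a bound factor.

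**Figure D1:**
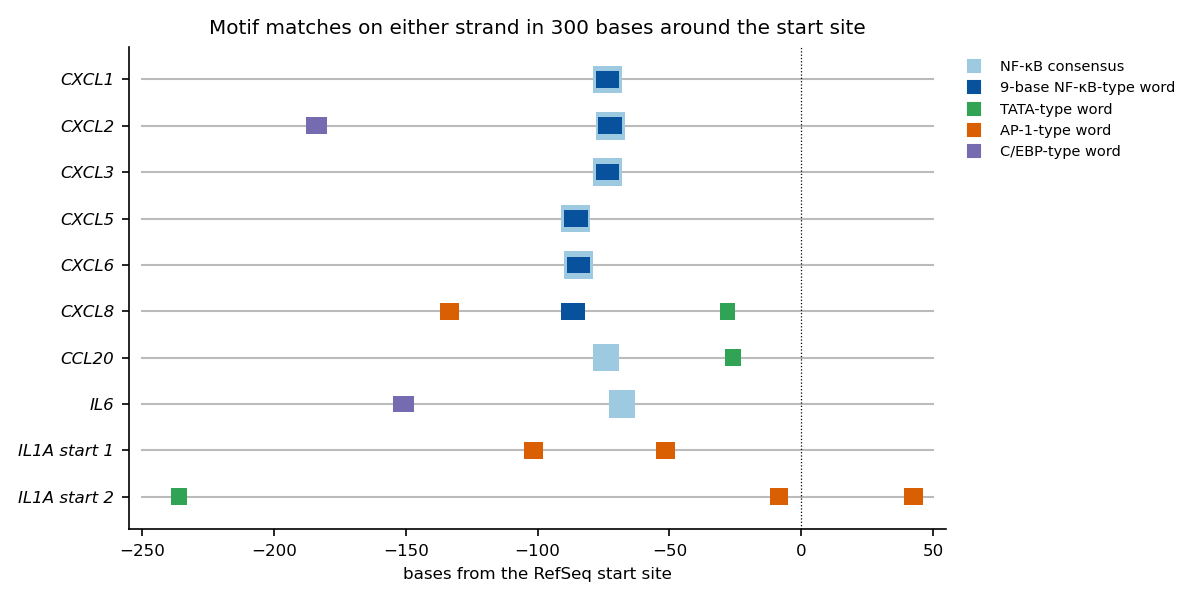
Positions of searched words on either strand in the RefSeq promoters of 8 of the genes and CXCL6, in bases from the start site (dotted line). The 9-base NF-κB-type word starts between -91 and -77 in all 6 genes that carry it.

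In control cells the 10 genes ran from rank 273 of 25733 to rank 23487. The mean FPKM (± SD, n = 3) was 128 ± 38.7 for CXCL1, rank 273 of 25733 genes, 109 ± 40.7 for CCL20, rank 334, and 55.3 ± 8.95 for CXCL8, rank 741. These 3 genes stood above CXCL3 at 18.04 ± 4.22, rank 2678. CXCL2 (8.68 ± 3.58), CXCL16 (7.51 ± 0.319) and LIF (5.03 ± 2.40) followed, with overlapping libraries. CXCL1 was above CCL20 in each of the 3 control libraries. CXCL5 stood at 1.59 ± 0.892, IL1A at 0.0764 ± 0.0111 and IL6 at 0.0285 ± 0.0494 FPKM.

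**Figure D2:**
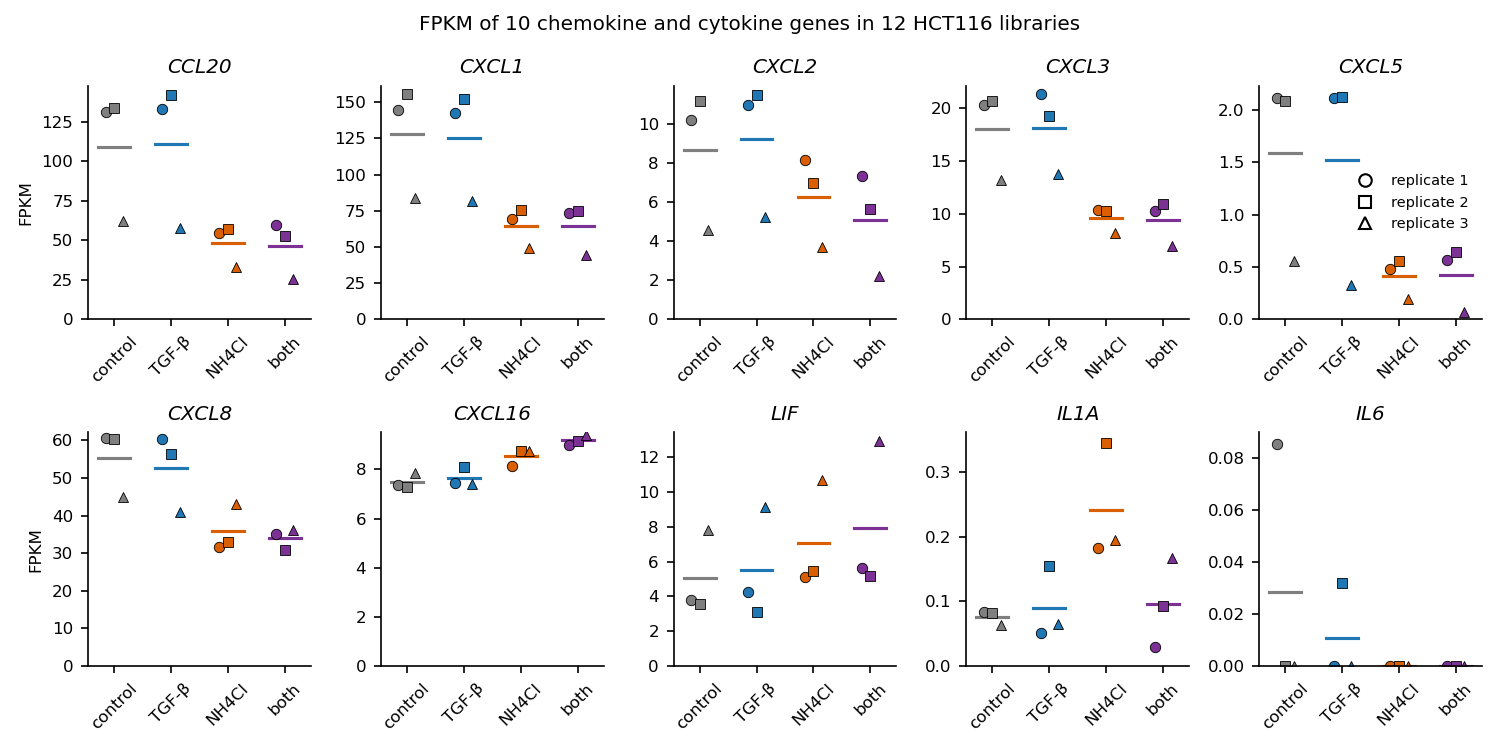
FPKM of the 10 genes in each of the 12 libraries by group ("both" is NH4Cl plus TGF-β); the symbols give the replicate number and the lines the group means of 3 libraries. CCL20, CXCL1, CXCL2, CXCL3 and CXCL5 are lower in both groups with NH4Cl within each replicate number, and replicate 3 is their lowest library in every group. CXCL8 is also lower within each replicate number, but its replicate 3 is not the lowest in the groups with NH4Cl.

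NH4Cl was compared with its absence in 2 pairs of groups: NH4Cl against control, and NH4Cl plus TGF-β against TGF-β alone. Neither is a test of the chosen genes, since the values of either may have entered the choice. In TGF-β-treated cells, CCL20, CXCL1, CXCL2, CXCL3 and CXCL8 were lower with NH4Cl in 3 of 3 replicate numbers, and CXCL16 and LIF were higher in 3 of 3. The log2 fold changes, on the scale of log2(FPKM + 1), ran from -1.23 for CCL20 to 0.46 for LIF, with a median of -0.80 over the 7 genes with a mean of at least 1 FPKM. The median over all 12341 genes was -5.71e-05. Ranked from the lowest fold change of these 12341, CCL20 was at 5, CXCL1 at 14, CXCL3 at 19, CXCL2 at 27 and CXCL8 at 72, and from the highest LIF was at 221 and CXCL16 at 1053. Fewer expressing cells and less RNA per cell cannot be told apart in these bulk libraries.

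Over all genes, limma with group means alone called 31 lower (0.251%) and 96 higher (0.778%) at an adjusted p below 0.05 with NH4Cl in TGF-β-treated cells. With the replicate block it called 1047 lower (8.48%) and 1275 higher (10.3%), and without the replicate 3 libraries and without the block 738 lower and 1002 higher. The SE pools the spread of all 12 libraries, and with only the 6 libraries compared in the model limma called 0 genes without the block (1214 unadjusted). The count without the block rested on single libraries. It was 127 in all and became 9 without TGF-β replicate 1, 3 without TGF-β replicate 2, 5, 6 and 39 without replicate 1, 2 or 3 of NH4Cl plus TGF-β, and 133 without TGF-β replicate 3. With the block it went from 2322 to 1339 and 1249 without TGF-β replicate 1 or 2, and to 1413 and 1427 without replicate 1 or 2 of NH4Cl plus TGF-β. The labels do not say that replicates were separate cultures, so p-values measure the spread between these libraries, which may be technical.

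For NH4Cl against control limma called, over all genes, 14 lower (0.113%) and 33 higher (0.267%) without the block, and 758 lower (6.14%) and 916 higher (7.42%) with it, a majority that turned to 892 lower and 777 higher with the block and median-centred libraries. The count of 47 without the block became 0, 3 and 28 without control replicate 1, 2 or 3 and 0, 0 and 29 without NH4Cl replicate 1, 2 or 3. With the block, 1674 became 776, 747 and 992 without control replicate 1, 2 or 3 and 884 and 705 without NH4Cl replicate 1 or 2.

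**Figure D3:**
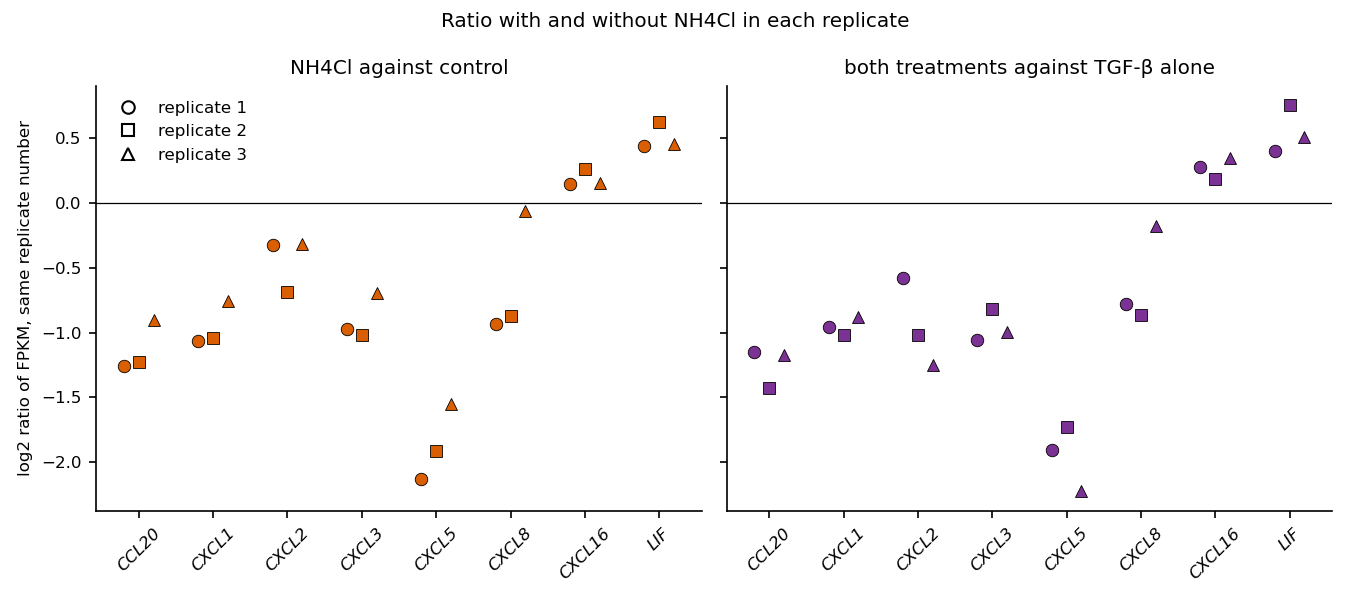
Log2 ratio of FPKM with NH4Cl to FPKM without it, in libraries of the same replicate number, for 8 genes, against control (left) and in TGF-β-treated cells (right). All ratios of CCL20, CXCL1, CXCL2, CXCL3, CXCL5 and CXCL8 lie below 0, those of CXCL8 closest to 0 in replicate 3, and all ratios of CXCL16 and LIF lie above 0; CXCL5 rests on few reads.

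CCL20 (ENSG00000115009; chromosome 2, 227805739 to 227817564, plus strand) encodes the ligand of CCR6. In control replicates 1, 2 and 3 it stood at 131, 133 and 61.9 FPKM, and with NH4Cl at 54.8, 56.9 and 33.1 FPKM. All NH4Cl libraries were below all control libraries, and the nearest values were those of control replicate 3 and NH4Cl replicate 2. With TGF-β alone it stood at 133, 142 and 57.7 FPKM, and with both treatments at 59.9, 52.8 and 25.6 FPKM. Here the groups overlapped, because TGF-β replicate 3 was lower than replicate 1 of both treatments, while within each replicate number the level with NH4Cl was 0.450, 0.372 and 0.443 of that without it. The log2 fold change in TGF-β-treated cells was -1.23 (SE 0.439, and 0.0910 with the replicate block), and -1.27 in replicates 1 and 2 alone.

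CXCL1 (ENSG00000163739; chromosome 4, 73869393 to 73871242, plus strand) encodes a neutrophil attractant. The 3 control libraries held 145, 156 and 83.9 FPKM, and the 3 NH4Cl libraries 69.2, 75.5 and 49.5 FPKM. The groups did not overlap. TGF-β libraries held 143, 152 and 82.0 FPKM, and libraries with both treatments 73.5, 75.1 and 44.5 FPKM. They did not overlap either, and the ratios within replicate numbers, 0.515, 0.493 and 0.543, varied little. The log2 fold change in TGF-β-treated cells was -0.94 (SE 0.311, and 0.0591 with the block), and -0.98 in replicates 1 and 2.

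CXCL3 (ENSG00000163734; chromosome 4, 74036589 to 74038807, minus strand), a close relative of CXCL1, showed the same order at a lower level. It measured 20.3, 20.6 and 13.2 FPKM in control and 10.3, 10.2 and 8.14 FPKM with NH4Cl. The lowest control library was above the highest NH4Cl library. With TGF-β it measured 21.4, 19.3 and 13.8 FPKM and with both treatments 10.2, 10.9 and 6.93 FPKM, again without overlap. The log2 fold change in TGF-β-treated cells was -0.88 (SE 0.215, and 0.0651 with the block), and also -0.88 in replicates 1 and 2.

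CXCL2 (ENSG00000081041; chromosome 4, 74097035 to 74099293, minus strand), which also attracts neutrophils, overlapped between groups in both comparisons. Control libraries had 10.2, 11.2 and 4.59 FPKM and NH4Cl libraries 8.16, 6.98 and 3.69 FPKM. Only replicate 3 of the control was below any NH4Cl library of another number, and within numbers the level with NH4Cl was 0.797, 0.622 and 0.804 of control. TGF-β libraries had 11.0, 11.5 and 5.23 FPKM and libraries with both treatments 7.37, 5.67 and 2.20 FPKM. The ratios there were 0.670, 0.493 and 0.421, and the log2 fold change was -0.80 (SE 0.438, and 0.0946 with the block). Replicates 1 and 2 gave -0.71.

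CXCL1, CXCL2 and CXCL3 are similar enough for reads to be shared. Of all 50-base stretches in the annotated transcripts of each gene, 12.5% of those of CXCL2, 6.01% of those of CXCL3 and 4.81% of those of CXCL1 also occurred in another of these 3 genes. At 100 bases the shares were 5% for CXCL2 and 3.27% for CXCL3, with each other, and 0 for CXCL1. The read length and the treatment of reads that map to several genes are not given in the sources used here. These shares do not bound the uncertainty of the levels, since the genes differ in abundance. CXCL1 had a mean of 95.7 FPKM over all libraries and CXCL2 7.32 FPKM. How many reads of each gene came from another was not tested. CXCL5 shared 1.12% of its 50-base stretches and CXCL16 0.430%, and the other members shared 0.

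CXCL8 (ENSG00000169429; chromosome 4, 73740506 to 73743716, plus strand), the interleukin 8 gene, differed from the genes above in replicate 3. It stood at 60.6, 60.3 and 44.96 FPKM in control and at 31.8, 33.0 and 43.0 FPKM with NH4Cl. The groups did not overlap, but control replicate 3 and NH4Cl replicate 3 were close together, at a ratio of 0.956 against 0.524 and 0.548 for numbers 1 and 2. With TGF-β it stood at 60.5, 56.3 and 40.9 FPKM and with both treatments at 35.2, 30.9 and 36.1 FPKM. Here too the groups did not overlap, and the ratio of 0.883 in replicate 3 was nearer to 1 than the ratios of 0.581 and 0.548 in the others. The log2 fold change in TGF-β-treated cells was -0.60 (SE 0.169, and 0.165 with the block), and -0.81 in replicates 1 and 2. Unlike for CCL20, the block hardly lowered the SE.

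CXCL5 (ENSG00000163735; chromosome 4, 73995642 to 73998779, minus strand), a neutrophil attractant, rested on few reads. Control libraries held 91, 91 and 21 reads (2.12, 2.09 and 0.558 FPKM), and NH4Cl libraries 19, 23 and 7 reads (0.485, 0.555 and 0.191 FPKM). The groups did not overlap, although control replicate 3 and NH4Cl replicate 2 were nearly equal. TGF-β libraries held 100, 82 and 12 reads (2.12, 2.13 and 0.325 FPKM) and libraries with both treatments 23, 25 and 3 reads (0.566, 0.644 and 0.0696 FPKM). TGF-β replicate 3 lay among the values of both treatments. Within replicate numbers the level with both treatments was 0.267, 0.303 and 0.214 of that with TGF-β alone. Its mean was below the filter, and with no filter the log2 fold change was -0.74, a value that understates the change of so low a gene.

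CXCL16 (ENSG00000161921; chromosome 17, 4733526 to 4739922, minus strand) encodes a membrane-bound chemokine that ADAM10 and ADAM17 release. Its level was 7.36, 7.29 and 7.87 FPKM in control and 8.14, 8.74 and 8.74 FPKM with NH4Cl. The NH4Cl libraries were all above the control libraries. With TGF-β it was 7.43, 8.09 and 7.41 FPKM and with both treatments 8.99, 9.18 and 9.40 FPKM, once more without overlap and in the direction opposite to CCL20. The log2 fold change in TGF-β-treated cells was 0.24 (SE 0.0560, and 0.0451 with the block), and 0.20 in replicates 1 and 2. An exon of CXCL16 overlaps MED11 on the opposite strand by 85 bases, and since strand-specific counting is not stated, reads from that stretch could belong to either gene.

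LIF (ENSG00000128342; chromosome 22, 30240447 to 30246851, minus strand) encodes a cytokine of the interleukin 6 family that signals through IL6ST and LIFR. Control libraries had 3.76, 3.54 and 7.80 FPKM and NH4Cl libraries 5.11, 5.44 and 10.7 FPKM. The groups overlapped because replicate 3 was the highest library in each, and within numbers the NH4Cl level was 1.36, 1.54 and 1.37 times that of control. TGF-β libraries had 4.26, 3.09 and 9.13 FPKM and libraries with both treatments 5.60, 5.19 and 12.9 FPKM. These overlapped in the same way, with ratios of 1.32, 1.68 and 1.42. The log2 fold change in TGF-β-treated cells was 0.46 (SE 0.430, and 0.0831 with the block), and also 0.46 in replicates 1 and 2. Exons of LIF overlap LIF-AS1 and AC004264.1 on the opposite strand, the latter by 175 bases at a mean of 0.405 FPKM.

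IL1A and IL6 were close to the limit of detection. IL1A (ENSG00000115008; chromosome 2, 112773915 to 112784590, minus strand), an alarmin of the interleukin 1 family, had 3, 3 and 2 reads in control, 2, 5 and 2 with TGF-β, 6, 12 and 6 with NH4Cl and 1, 3 and 6 with both treatments. The 3 NH4Cl libraries were above the 3 control libraries, at means of 0.241 and 0.0764 FPKM, whereas the libraries with both treatments and with TGF-β alone overlapped, at means of 0.0961 and 0.0902 FPKM. With no filter, the IL1A log2 fold change in TGF-β-treated cells was 0.01. IL6 (ENSG00000136244; chromosome 7, 22725884 to 22732002, plus strand), a cytokine of the acute phase response, had 4 reads in all 12 libraries, 3 of them in control replicate 1 and 1 in TGF-β replicate 2. No difference in IL6 was detectable at this depth.

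**Figure D4:**
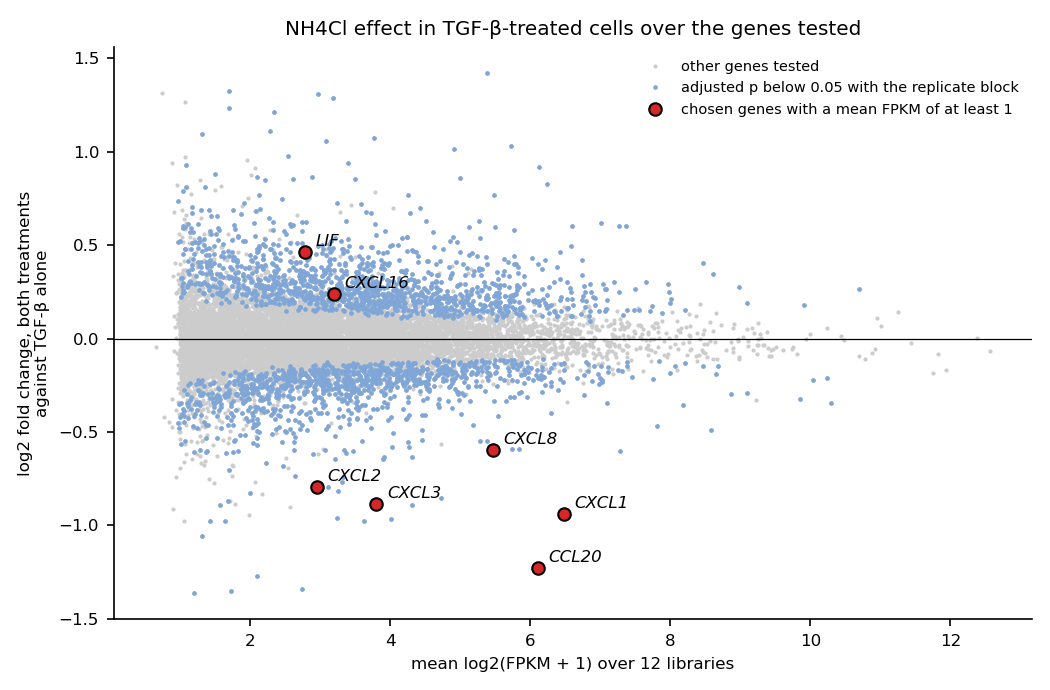
Log2 fold change of NH4Cl plus TGF-β against TGF-β alone plotted against mean log2(FPKM + 1) for the 12341 genes tested; blue points passed an adjusted p of 0.05 with the replicate block. CCL20 (-1.23) and CXCL1 (-0.94) lie below most genes of similar level, and LIF (0.46) and CXCL16 (0.24) lie above 0.

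For TGF-β against control, the log2 fold changes of the 7 tested genes ran from -0.08 (CXCL8) to 0.10 (CXCL2), and limma called 0 of 7, with 0 at an unadjusted p below 0.05, with and without the block. Over all genes 0 passed without the block (103 unadjusted). In NH4Cl-treated cells the fold changes with TGF-β ran from -0.31 (CXCL2) to 0.10 (LIF), and 0 of 7 passed. CXCL2 alone had an unadjusted p below 0.05, with the block (limma adjusted p = 0.660), where its level with both treatments was 0.903, 0.813 and 0.596 of that with NH4Cl. IL1A, below the filter, was at 0.161, 0.267 and 0.851 of its NH4Cl level, and all 3 libraries with both treatments were below the 3 with NH4Cl alone, on 10 and 24 reads. Over all genes 0 passed without the block (165 unadjusted). With the block, 1 gene passed in each of these comparisons (0.0081%), ID1 in both, a BMP and TGF-β responsive gene named after its values were seen. ID1 rose by 0.65 (SE 0.0657, limma adjusted p = 0.0248) without NH4Cl and by 0.62 (adjusted p = 0.0342) with it. In NH4Cl-treated cells the count of 1 with the block became 0 when any of the 6 libraries was left out. Without NH4Cl it became 2 without TGF-β replicate 3 (1 higher and 1 lower) and 0 without any of 4 others, and without control replicate 2 the 1 gene called was lower, so ID1 was no longer called. Both comparisons share libraries with those that may have led to the choice of the genes.

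The difference between the NH4Cl effects with and without TGF-β contains values that may have led to the choice, so it is given without p-values for single genes. It ran from -0.41 for CXCL2 to 0.07 for CXCL16 on the log2 scale. With a library left out, CXCL2 ran from -0.7344 to -0.0007484 without the block and from -0.5314 to -0.3242 with it. CXCL16 then ran from 0.04216 to 0.1095 without the block and from 0.03335 to 0.1107 with it. Side by side, the log2 fold changes without and with TGF-β were -1.11 and -1.23 for CCL20, -0.95 and -0.94 for CXCL1, -0.83 and -0.88 for CXCL3, -0.39 and -0.80 for CXCL2, -0.61 and -0.60 for CXCL8, 0.17 and 0.24 for CXCL16, and 0.43 and 0.46 for LIF. Over all 12341 genes limma called 0 for this difference, without the block (115 unadjusted) and with it (537 unadjusted). Relative to control, cells with both treatments had 0.456, 0.395 and 0.413 of the CCL20 level in replicates 1, 2 and 3 and 0.507, 0.482 and 0.531 of the CXCL1 level.

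Of 41 other chemokine ligands, 17 were in the table and 3 were tested: CXCL6, CCL2 and CX3CL1. In TGF-β-treated cells 0 of 3 passed without the block (limma, 1 unadjusted). With the block 3 of 3 were lower, beside 8.48% lower and 10.3% higher over all genes. The same held in replicates 1 and 2 alone, beside 738 lower and 1002 higher of 12341. Their median log2 fold change was -0.77. CXCL6, the neighbour and relative of CXCL5, had 39.8, 41.4 and 24.1 FPKM in control, 19.5, 17.8 and 16.2 with NH4Cl, 45.5, 44.0 and 21.7 with TGF-β and 21.5, 22.2 and 14.5 with both treatments. Control and NH4Cl libraries of CXCL6 did not overlap, while TGF-β replicate 3 was below replicate 2 of both treatments. Its log2 fold change in TGF-β-treated cells was -0.85 (SE 0.288, limma adjusted p = 0.227; with the block, SE 0.131 and adjusted p = 0.00236). CCL2, an attractant of monocytes, went from 12.9 ± 6.70 with TGF-β to 6.99 ± 3.54 FPKM with both treatments (SD, n = 3; adjusted p = 0.00248 with the block), and the membrane-bound CX3CL1 from 2.64 ± 0.727 to 1.92 ± 0.525 FPKM (0.0254). Against control, 2 of the 3 were lower with the block, beside 6.14% over all genes, and 0 of 3 passed without it (1 unadjusted).

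Among 54 other interleukins and cytokines, 33 were in the table and 13 were tested. In TGF-β-treated cells 1 was higher and 1 lower without the block, beside 0.778% and 0.251% over all genes. With the block 2 were higher and 6 lower, beside 10.3% and 8.48%. In replicates 1 and 2 alone 1 was higher and 5 lower, beside 1002 and 738 of 12341. The list's median log2 fold change was -0.21. The highest was IL16, a leukocyte attractant, with 1.13 ± 0.353 FPKM with TGF-β and 2.40 ± 0.221 with both treatments (0.69, SE 0.131, limma adjusted p = 0.0448). IL17C, an epithelial cytokine, had the lowest fold change, with 11.1 ± 1.90 FPKM against 5.94 ± 0.643 (-0.79, limma adjusted p = 0.0885, and 4.61e-04 with the block). TNF was at 12.4 ± 4.45 against 7.54 ± 1.91 FPKM (-0.62, adjusted p = 0.549, and 0.0137 with the block). LTB, the lymphotoxin that was the most abundant gene of the list, was at 206 ± 79.6 against 135 ± 48.9 FPKM (-0.60, adjusted p = 0.639, and 1.11e-04 with the block). IL23A, the other gene called without the block, was named after its values were seen, at 18.6 ± 2.04 against 12.8 ± 1.15 FPKM (-0.51, limma adjusted p = 0.0353, and 0.00424 with the block). Of NH4Cl against control, limma called 0 of 13 without the block (6 unadjusted). With the block it called 1 higher and 6 lower, beside 7.42% and 6.14% over all genes.

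The receptor list held 11 genes, of which 9 were in the table and 4 were tested. CXCR2, the receptor shared by the neutrophil attractants, had a mean of 0.0379 FPKM, CXCR1 2.68 and CXCR6, the receptor of CXCL16, 0.0875 FPKM. CCR6, the receptor of CCL20, was not among the genes listed. LIFR had a mean of 0.00275 FPKM, while IL6ST, its partner, had 6.58 FPKM. In TGF-β-treated cells limma called 0 of 4 without the block (2 unadjusted). With the block 1 was higher and 1 lower, beside 10.3% and 8.48% over all genes. The same counts held in replicates 1 and 2, beside 1002 and 738 of 12341. IL6R went from 1.67 ± 0.176 to 2.63 ± 0.448 FPKM (0.43, adjusted p = 0.0958, and 0.0134 with the block) and IL6ST from 7.34 ± 1.08 to 5.58 ± 0.227 FPKM (-0.33, adjusted p = 0.131, and 0.0223 with the block). The list's median log2 fold change was 0.08.

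All 18 NF-κB subunits and regulators were tested. In TGF-β-treated cells 0 passed without the block (limma, 3 unadjusted), 7 were lower and 0 higher with the block, beside 8.48% lower and 10.3% higher over all genes, and 7 were lower and 0 higher in replicates 1 and 2 alone, beside 738 lower and 1002 higher of 12341. Their median log2 fold change was -0.14, and 14 of 18 fold changes were below 0. TNFAIP3, a deubiquitinating inhibitor of the pathway, had 24.8 ± 6.002 FPKM with TGF-β and 15.5 ± 2.94 with both treatments (-0.63, limma adjusted p = 0.262, and 2.15e-04 with the block). BIRC3, a ubiquitin ligase, had 19.1 ± 4.18 against 12.3 ± 0.638 FPKM (-0.58, adjusted p = 0.139, and 0.00516 with the block). NFKBIA, which encodes the inhibitor IκBα, had 44.1 ± 13.1 against 31.3 ± 7.64 FPKM (-0.46, adjusted p = 0.571, and 0.00136 with the block), and NFKBIZ, a nuclear cofactor, 3.64 ± 1.56 against 2.43 ± 1.05 FPKM (-0.43, adjusted p = 0.694, and 0.00412 with the block). TNIP1 was the most abundant gene of the list, with 70.9 ± 2.81 against 64.4 ± 6.37 FPKM, and did not pass (-0.14, adjusted p = 0.547, and 0.0591 with the block). Against control, 7 were lower with NH4Cl under the block, beside 6.14% over all genes, and 0 of 18 passed without it (4 unadjusted).

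The 13 other inducible transcription factors of cytokine genes had a median log2 fold change of -0.00115 in TGF-β-treated cells, and limma called 0 without the block (0 unadjusted) and 2 higher and 2 lower with it, beside 10.3% higher and 8.48% lower over all genes. FOS (0.34) and the C/EBP family gene CEBPB (0.28) were higher, and IRF1 (-0.19) and FOSL1 (-0.15) lower, with adjusted p-values of 0.0340, 0.00136, 0.0205 and 0.0289 with the block. In replicates 1 and 2 alone 1 was higher and 1 lower, beside 1002 and 738 of 12341. JUND, the most abundant at 131 ± 19.8 against 148 ± 31.9 FPKM, did not pass with or without the block. Against control 2 were higher and 1 lower with the block, beside 7.42% and 6.14% over all genes. Without the block 0 of 13 passed (0 unadjusted).

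AU-rich motifs were counted in the 3′ untranslated region of the longest annotated transcript of each gene. The 7-base word TATTTAT occurred 8 times in CXCL2, a count met by 0.178% of the 10684 tested genes with such a region, 5 times in LIF (1.35%), 4 times in CXCL1 and in CXCL8 (3.10%), 3 times in CXCL3, CXCL5, IL1A and IL6 (6.49%), 1 time in CCL20 (34.4%) and 0 times in CXCL16. The background median was 0. The 5-base word ATTTA set the members apart less. Counts as high as theirs were met by 11.9% (CXCL5) to 71.7% (CXCL16) of these genes, at a background median of 2. CXCL6, which was also lower with NH4Cl, held TATTTAT 0 times. The counts are not scaled to the length of the region, which ran from 429 bases in IL6 to 3204 in LIF (background median 1280). A relation between these counts and the NH4Cl differences was not tested. A further list held 9 genes for proteins that bind or cut AU-rich or other cytokine mRNAs, which act on decay, stability or translation. In TGF-β-treated cells limma called 0 of 9 without the block (1 unadjusted). With the block 2 were higher and 2 lower, beside 10.3% and 8.48% over all genes. In replicates 1 and 2 alone 0 were higher and 3 lower, beside 1002 and 738 of 12341. The RNase gene ZC3H12A had a log2 fold change of -0.37 (adjusted p = 0.272, and 0.00106 with the block), ZFP36, which encodes tristetraprolin, 0.26 (0.818, and 0.0233 with the block), KHSRP -0.22 (0.413, and 0.0124) and TIAL1 0.13 (0.634, and 0.0290). ZFP36L2, the most abundant, had 93.6 ± 8.68 against 95.4 ± 20.5 FPKM and did not pass. The list's median was -0.06. Against control 1 was higher and 1 lower with the block, beside 7.42% and 6.14% over all genes. Without the block 0 of 9 passed (1 unadjusted).

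**Figure D5:**
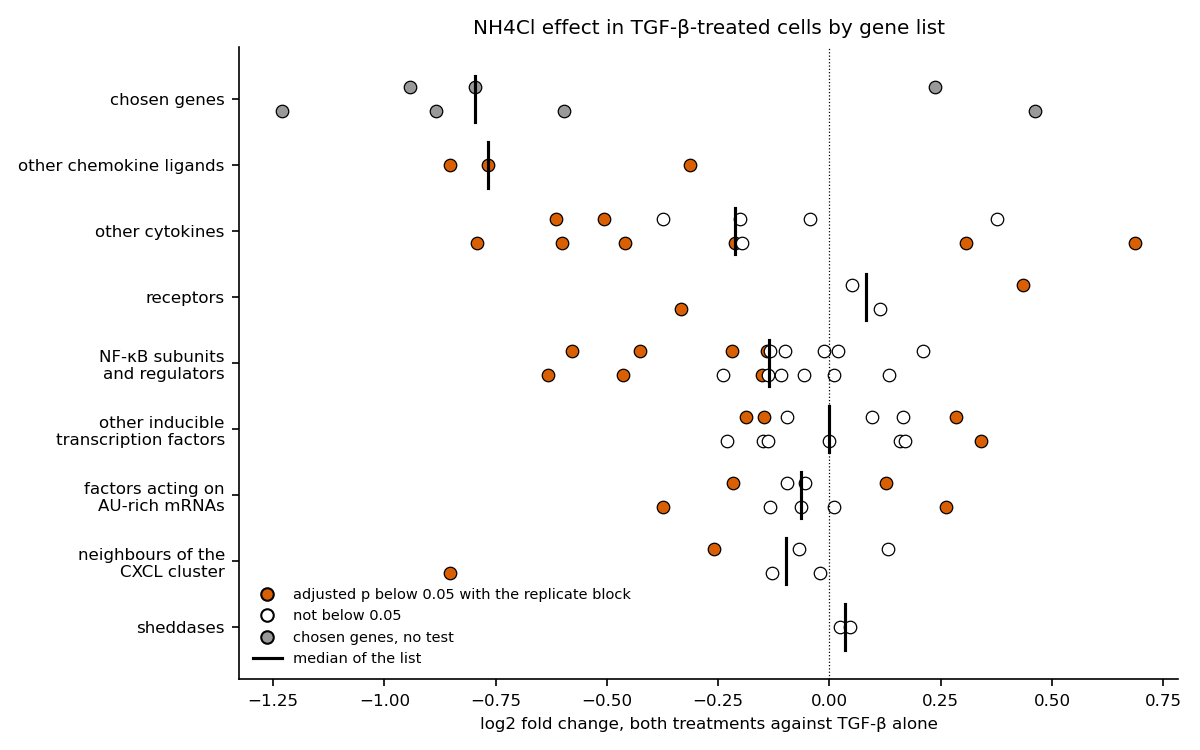
Log2 fold change of NH4Cl plus TGF-β against TGF-β alone for each tested gene of 9 lists; filled points passed an adjusted p of 0.05 with the replicate block, grey points are the chosen genes, with no test, and bars mark the median of a list. The chosen genes and the 3 other chemokine ligands have medians of -0.80 and -0.77, and the other lists have medians between -0.21 and 0.08.

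CXCL1, CXCL2, CXCL3, CXCL5 and CXCL8 lie together on chromosome 4, and of 15 other genes of that region, CXCL6 among them, 11 were in the table and 6 were tested. In TGF-β-treated cells 0 of 6 passed without the block (limma, 1 unadjusted). With the block 2 were lower and 0 higher, beside 8.48% and 10.3% over all genes. The same counts held in replicates 1 and 2, beside 738 and 1002 of 12341. The lower genes were CXCL6 and RASSF6. RASSF6, which encodes a Ras association domain protein, had 30.1 ± 4.25 against 24.9 ± 1.95 FPKM (-0.26, adjusted p = 0.388, and 0.00449 with the block). The list's median log2 fold change was -0.10. Against control 2 were again lower and 0 higher with the block, beside 6.14% and 7.42% over all genes. Without the block 0 passed (1 unadjusted). The sheddase genes of CXCL16, ADAM10 and ADAM17, had log2 fold changes of 0.02 and 0.05 in TGF-β-treated cells and neither passed with or without the block (0 unadjusted).

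Genes with a pattern like the mean of the 7 tested genes were sought by Pearson correlation. The mean was that of the standardised log2(FPKM + 1) of these genes over the 12 libraries, after subtraction of each replicate number's mean. CXCL16 and LIF ran opposite to it, so genes like this mean are unlike them. Of 12334 other genes the highest were PERP (r = 0.990), WDR77 (0.989), MYB (0.986), NFKBIZ (0.984) and CXCL6 (0.983). The same libraries and their NH4Cl difference lie behind every one of these values. PERP, a desmosomal gene, went from 528 ± 129 FPKM with TGF-β to 427 ± 94.8 with both treatments, and the transcription factor gene MYB from 12.4 ± 2.76 to 9.21 ± 1.38 FPKM. Each of the 7 genes is part of the mean, which raises its own value. The correlation with the mean was 0.975 for CCL20, 0.972 for CXCL1, 0.966 for CXCL8, 0.958 for CXCL3 and 0.865 for CXCL2, and it was -0.806 for CXCL16 and -0.888 for LIF.

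Promoters of 153 gene symbols held the GGAATTTCC word, the CXC genes above included, and 49 of the 153 were tested. When the chosen genes and CXCL6 were left out, 44 remained. With NH4Cl in TGF-β-treated cells, 1 of these was lower and 0 higher without the block, the Wnt ligand gene WNT10A, and 9 were lower and 5 higher with the block, beside 8.48% lower and 10.3% higher over all genes, and a median log2 fold change of -0.06. The 9 were ITPA, NFKB1, NFKBIA, NFKBIB, NFKBIZ, OAS3, UBL7, WNT10A and ZNF620, and the 5 were ACYP2, COL7A1, ICAM1, STARD3 and TFB1M. WNT10A (-0.63, limma adjusted p = 0.0430) and these genes were named after their values were seen, and the count was set out after the sequences were known, so no test was made of it.

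Some markers of cell identity were also called with NH4Cl under the block. Of 7 epithelial markers limma called 0 without the block in TGF-β-treated cells (1 unadjusted), and 1 was higher and 2 lower with it: EPCAM went from 238 ± 8.99 with TGF-β to 272 ± 5.69 FPKM with both treatments, KRT19 from 624 ± 138 to 507 ± 92.8 FPKM (-0.29) and CDH1 from 19.1 ± 3.56 to 16.5 ± 2.15 FPKM. In replicates 1 and 2 alone 2 were higher and 1 lower. Over all genes 10.3% were higher and 8.48% lower with the block, and 1002 and 738 of 12341 in replicates 1 and 2. Of the 3 markers of other cell types tested, 0 passed without the block (0 unadjusted) and 1 was higher with it and in replicates 1 and 2, VWF, from 2.29 ± 1.48 to 3.77 ± 2.32 FPKM (0.52, adjusted p = 0.00181 with the block), a larger fold change than those of LIF (0.46) and CXCL16 (0.24). The part of these shifts in the chemokine values was not tested. Against control, 1 epithelial marker was higher and 1 lower with the block, beside 7.42% and 6.14% over all genes. VWF was again higher (0.46, limma adjusted p = 0.00423 with the block). Without the block 0 passed (1 and 0 unadjusted).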

How the data were processed

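The FPKM values were used as deposited by the authors. According to the submitters' processing notes, reads were trimmed with Trimmomatic 0.36, aligned to GRCh38/hg38 with STAR 2.5.2b, counted with featureCounts of Subread 1.5.2 and compared with DESeq2, while the paper names HTSeq for counting. Strandedness was not stated. Whole reads were recovered from the FPKM values and exon lengths, with 100% of values within 0.05 of a whole number. Gene positions came from GENCODE release 29, which matched 25733 of 25733 genes. The library total implied by the FPKM values was 1.02 to 1.03 times the reads on genes in replicates 1 and 2. In replicate 3 it was 0.964 to 0.969 times, below the reads on genes. What this total stands for is not given in the sources used here.

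Values were taken as log2(FPKM + 1), genes with a mean of at least 1 FPKM were kept, and limma was fitted to 4 group means with a trend in the moderated variance. P-values were adjusted by Benjamini-Hochberg over the 12341 genes, with a threshold of 0.05, and the scripts were tested on simulated data. Neither the paper nor the labels state what a number means. Pairing by replicate number was therefore taken from correlations of deviations from group means, above 0.1 in 18 of 18 pairs (r 0.349 to 0.774). For numbers 1 and 2 these correlations can follow from the offset of replicate 3 alone. Correlations between different numbers were not taken. The alternatives were another pseudocount, other filters, TPM, median-centred libraries, only the groups compared, no trend, the replicate block, replicates 1 and 2 only, and each library left out in turn. Combinations of the block with no filter, TPM, median-centred libraries, a pseudocount of 0.1 or replicates 1 and 2 only were chosen after seeing the data.

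The genes and lists were chosen with earlier results of these data known. A test of the members with NH4Cl in TGF-β-treated cells was planned and run, but is not given as a test, since those values may have entered the choice. Genes named are all 10 members, from each list every gene called with NH4Cl in TGF-β-treated cells with or without the block, at most the 4 with the largest absolute log2 fold change, and the most abundant gene of the list. The 5 non-member genes with the highest Pearson correlation with the mean standardised log2(FPKM + 1) of the tested members, after subtraction of each replicate number's mean, were added. IL23A, ID1 and the genes named for their GGAATTTCC word were named outside this rule. Tools were R 4.3.3, limma 3.58.1, Python 3.11.15, numpy 2.4.6, pandas 2.3.3, matplotlib 3.10.9 and Biopython 1.88.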

Additional observations from a re-analysis of the deposited data

How the results depend on the processing

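For NH4Cl in TGF-β-treated cells, 127 genes were called by limma, and 51 with no filter, 58 with TPM, 0 with only the groups compared, 1740 in replicates 1 and 2 only, and 3 to 1798 with each library left out in turn, with or without the block. With the replicate block, 2322 were called, and 1574 with the block and no filter, 2041 with TPM, 2370 with median-centred libraries, 2291 with a pseudocount of 0.1 and 1653 in replicates 1 and 2 only. Calls of the chosen genes are not counted here, since their values may have entered the choice. For NH4Cl in cells without TGF-β, 47 genes were called, and 23 with no filter, 0 with only the groups compared, 1293 in replicates 1 and 2 only, 1674 with the block and, with the block, 1123 with no filter, 1477 with TPM, 1669 with median-centred libraries (777 higher and 892 lower), 1654 with a pseudocount of 0.1 and 1147 in replicates 1 and 2 only. With each library left out the count was 0 to 1398. Median-centred libraries without the block gave 33 higher and 23 lower. Combinations of the block with other alternatives, apart from libraries left out, were chosen after seeing the data.

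For TGF-β without NH4Cl limma called 0 genes, and 1 with the block and with the block and TPM, median-centred libraries, a pseudocount of 0.1 or replicates 1 and 2 only, with 0 to 2 when a library was left out. In NH4Cl-treated cells it called 0 genes, and 1 with the block and with the block and median-centred libraries or a pseudocount of 0.1. The difference between the NH4Cl effects had 0 genes, 1 with the block in replicates 1 and 2 only, and 0 to 1 with a library left out.

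The direction of the small TGF-β fold changes depended on the processing for most genes. For TGF-β without NH4Cl, CCL20 became -0.0030 with median-centred libraries, and in replicates 1 and 2 only CXCL3 became -0.0128 and LIF -0.004201. In NH4Cl-treated cells, replicates 1 and 2 only gave 0.008493 for CCL20, 0.03852 for CXCL1, 0.04025 for CXCL3 and 0.02473 for CXCL8, and the difference between NH4Cl effects became 0.05305 for CXCL3. With each library left out, TGF-β without NH4Cl gave -0.3593 to 0.4144 for CCL20, -0.3066 to 0.2504 for CXCL1, -0.2606 to 0.4209 for CXCL2, -0.1878 to 0.1873 for CXCL3, -0.2198 to 0.1025 for CXCL8, -0.01515 to 0.06215 for CXCL16 and -0.3113 to 0.372 for LIF. In NH4Cl-treated cells the ranges were -0.3604 to 0.2542 for CCL20, -0.2032 to 0.2171 for CXCL1, -0.6022 to 0.0946 for CXCL2, -0.1544 to 0.1411 for CXCL3, -0.2138 to 0.1558 for CXCL8 and -0.2723 to 0.4023 for LIF. For the difference between NH4Cl effects they were -0.529 to 0.2521 for CCL20, -0.2749 to 0.282 for CXCL1, -0.2288 to 0.1462 for CXCL3, -0.1679 to 0.2335 for CXCL8 and -0.3371 to 0.4138 for LIF. These ranges hold fits with and without the block. With the block, CXCL2 kept its direction in all of these comparisons, and with a library left out LIF did so in both TGF-β comparisons (0.005799 to 0.1728 without NH4Cl and 0.04962 to 0.192 with it).

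With NH4Cl, the log2 fold changes of the 7 genes above the filter kept their direction throughout. With each library left out in TGF-β-treated cells, without the block they were -1.643 to -0.8615 for CCL20, -1.221 to -0.7001 for CXCL1, -1.122 to -0.3881 for CXCL2, -1.06 to -0.7023 for CXCL3, -0.7641 to -0.4865 for CXCL8, 0.219 to 0.2749 for CXCL16 and 0.08826 to 0.8391 for LIF. With the block they were narrower for CCL20 (-1.317 to -1.156), CXCL1 (-0.9887 to -0.9166), CXCL2 (-0.9188 to -0.7115), CXCL3 (-0.9296 to -0.8348) and LIF (0.355 to 0.522), but not for CXCL8 (-0.776 to -0.492) and CXCL16 (0.1987 to 0.276). Without TGF-β, CXCL2 ran from -0.7433 to -0.09865 without the block and from -0.4619 to -0.3105 with it, and LIF from 0.1255 to 0.7325 and from 0.3358 to 0.4782. Without the block, a library left out also unbalances the replicate numbers between groups. What the replicate number stands for was not tested.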
